A study of Homo sapiens with 4 samples.

Results

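The p53 target genes described here are 36 genes that p53 is known to activate directly. Each was read from the array probe that carries its gene name, with 1 probe per gene, the one with the highest mean log2 signal over the 4 arrays. All 36 were on the array. A gene was kept where its probe was well above background on at least 1 array, which held for 32 of the 36 and for 17353 of the 43311 gene names on the array. The rule uses signal strength and no ratio, but CDKN1A and ZMAT3 passed only through AZA arrays, APAF1 only through MDS-L vehicle and GDF15 only through the MDS-L arrays, so the filter itself favours the direction they show. Well above background on all 4 arrays were 27 genes.

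The MDS-L cell line derives from cells of a myelodysplastic syndrome (MDS), and MDS-L/CDA is its counterpart, made resistant to 5-azacytidine (AZA) by transduction of CDA. The CDA protein deaminates cytidine analogues. Each line was grown with interleukin-3 and exposed for 72 h to 1 μM AZA or to 0.1% DMSO as vehicle, which gave 4 groups: MDS-L vehicle, MDS-L AZA, MDS-L/CDA vehicle and MDS-L/CDA AZA. RNA of each group was hybridized to 1 array, so there was no replicate, no test was made and no p-value is given. Some labels give the dose as 1 mM, and 1 label field names the other treatment for the MDS-L AZA and the MDS-L/CDA vehicle arrays, whereas title, description and source name agree on the groups used here. MDS-L/CDA is a single transduced line, so the difference between the lines cannot be told apart from any other difference between these 2 cultures.

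The transcription factor p53 is held at a low level by the ubiquitin ligase MDM2 and is stabilized when DNA is damaged or DNA replication stalls. It then switches on genes that stop the cell cycle, repair DNA, change metabolism or lead to apoptosis, and MDM2 is among them, which closes a feedback loop. In blood progenitors this response limits the survival of damaged cells. AZA is a cytidine analogue that is built into RNA and DNA, where it traps DNA methyltransferases and lowers DNA methylation.

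Values are the background-subtracted signal of a probe divided by the 75th percentile of signal on its array, called relative signal below. The lowest relative signal flagged as well above background was 0.190 on both MDS-L arrays, 0.272 on MDS-L/CDA vehicle and 0.296 on MDS-L/CDA AZA, and a dimmer signal is only an upper bound. Relative signals are compared between arrays for the same probe, never between probes. The only error that could be measured was that between repeat spots, of which 300 probes have 10 per array. Its SD for a log2 AZA/vehicle ratio was 0.201 in MDS-L and 0.286 in MDS-L/CDA, and it leaves out the spread between cultures. A gene is called increased by AZA where the ratio was at least 2 and the Z score, which is the log2 ratio over the SD of probes of like signal, at least 2, and called decreased by the mirrored rule.

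Of myeloid progenitor markers, 11 of 12 were well above background on at least 1 array, among them CD34, CD33, PTPRC and SPI1, while MPO was not. None of 6 fibroblast markers was, and 2 of 5 epithelial markers (KRT8 and KRT18) were. Of 5 T cell markers CD3D and CD2 were, CD3D only on MDS-L AZA and CD2 on both AZA arrays, and CD3E, CD3G and CD5 were not. The MDS-L AZA array had the highest value of CD3D (4.47, and 0.177 or less elsewhere) and of CD2 (1.29, and 0.451 or less elsewhere). Some progenitor markers moved with AZA too. KIT, the receptor of stem cell factor, was called increased in both lines, from 0.503 to 23.8 in MDS-L and from 0.346 to 1.24 in MDS-L/CDA, and CD38, a surface enzyme, was called decreased in MDS-L, from 23.5 to 8.43. The part of other cells or of a shift in cell state in the results below was not tested. The only CDA probe gave relative signals between 0.0943 and 0.146, none of them well above background, so the transduction could not be checked with it.

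Promoter sequences of RefSeq (GRCh38.p14) were at hand for 26 of the 36 genes, as 39 windows from 250 bases before to 50 bases after an annotated start. The p53 half-site, a motif of 10 bases of which a full site holds a pair with a spacer of up to 13 bases, was searched by its usual consensus. The motif is its own reverse complement, so 1 search covers both strands. A half-site was found in 7 of the 39 windows (17.9%), in PLK2, SESN1, FAS, DDB2, RPS27L, AEN and FDXR, against 6.63% of 35116 windows of all genes. A full site was found in 1 window, that of DDB2, against 10 (0.0285%) of all windows. A match is a description of the letters and does not show binding. The stretches around the match are shown for 1 gene of each role that had one, with the matched bases in capitals. They lie at chr11:47214975-47215003 (DDB2), chr10:88991299-88991328 (FAS), chr5:58460199-58460228 (PLK2, minus strand), chr15:88621296-88621325 (AEN) and chr6:109009018-109009047 (SESN1, minus strand).
DDB2: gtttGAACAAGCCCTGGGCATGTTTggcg
FAS: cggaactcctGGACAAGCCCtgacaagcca
PLK2: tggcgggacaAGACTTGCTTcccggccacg
AEN: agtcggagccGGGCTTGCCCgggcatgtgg
SESN1: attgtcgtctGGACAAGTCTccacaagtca

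Of the 3 genes called in both lines below, BTG2 and DRAM1 had no half-site in their windows, and no window was at hand for TP53INP1. The lack of a match does not show that a gene lacks a p53 site, since bases outside the windows were not searched. For BTG2, TP53I3 and DRAM1, whose ratios were among the largest, the 250 bases before the start are printed with each CpG in capitals, since CpG is the site that DNA methyltransferases modify. Methylation itself is not measured on these arrays. The stretches hold 30 CpG for BTG2 (chr1:203305269-203305518), 6 for TP53I3 (chr2:24084835-24085084, minus strand) and 34 for DRAM1 (chr12:101877330-101877579).
BTG2: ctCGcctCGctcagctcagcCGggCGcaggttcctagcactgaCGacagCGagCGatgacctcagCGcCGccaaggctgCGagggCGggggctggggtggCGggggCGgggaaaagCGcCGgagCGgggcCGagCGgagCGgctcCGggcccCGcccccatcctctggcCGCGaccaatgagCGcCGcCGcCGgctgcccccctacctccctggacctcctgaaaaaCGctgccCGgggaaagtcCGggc
TP53I3: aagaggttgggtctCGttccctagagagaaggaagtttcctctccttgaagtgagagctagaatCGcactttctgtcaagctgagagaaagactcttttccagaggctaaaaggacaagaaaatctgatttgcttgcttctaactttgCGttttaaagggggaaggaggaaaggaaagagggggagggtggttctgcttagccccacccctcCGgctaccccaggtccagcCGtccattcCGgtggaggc
DRAM1: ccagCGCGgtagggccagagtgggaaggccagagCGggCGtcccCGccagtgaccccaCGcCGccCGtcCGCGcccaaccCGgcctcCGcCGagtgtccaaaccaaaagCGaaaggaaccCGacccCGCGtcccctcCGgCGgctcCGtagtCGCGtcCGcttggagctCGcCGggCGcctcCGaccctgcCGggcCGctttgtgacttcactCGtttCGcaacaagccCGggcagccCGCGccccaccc
The window of TP53I3 was poor in CpG. In whole windows the median was 25 CpG over the 39 windows of p53 target genes and 14 over all windows.

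In MDS-L cells, AZA increased 3 of the 32 measured p53 target genes, BTG2, TP53I3 and TP53INP1, and decreased 1, DRAM1. The same rule called 4.27% of 17172 measured genes increased and 2.67% decreased, so these counts lie near the background. In MDS-L/CDA cells, AZA increased 2 of 30, BTG2 and TP53INP1, against 2.10% of 15393 genes, and decreased 2, DRAM1 and TNFRSF10B, against 2.89%. In RNA of whole cultures, a change in some cells and a change in the level per cell cannot be told apart. The median log2 ratio was -0.12 in MDS-L, where 14 of 32 genes were above 0, and the median of all genes was -0.13. In MDS-L/CDA it was 0.16, with 20 of 30 above 0, and that of all genes was 0.015. Under 7 other normalizations the median ranged from -0.66 to 0.061 in MDS-L and from 0.028 to 0.17 in MDS-L/CDA, so its direction in MDS-L depends on the scaling. With only genes well above background on both arrays of the pair, the median was -0.12 in MDS-L and 0.14 in MDS-L/CDA.

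**Figure D1:**
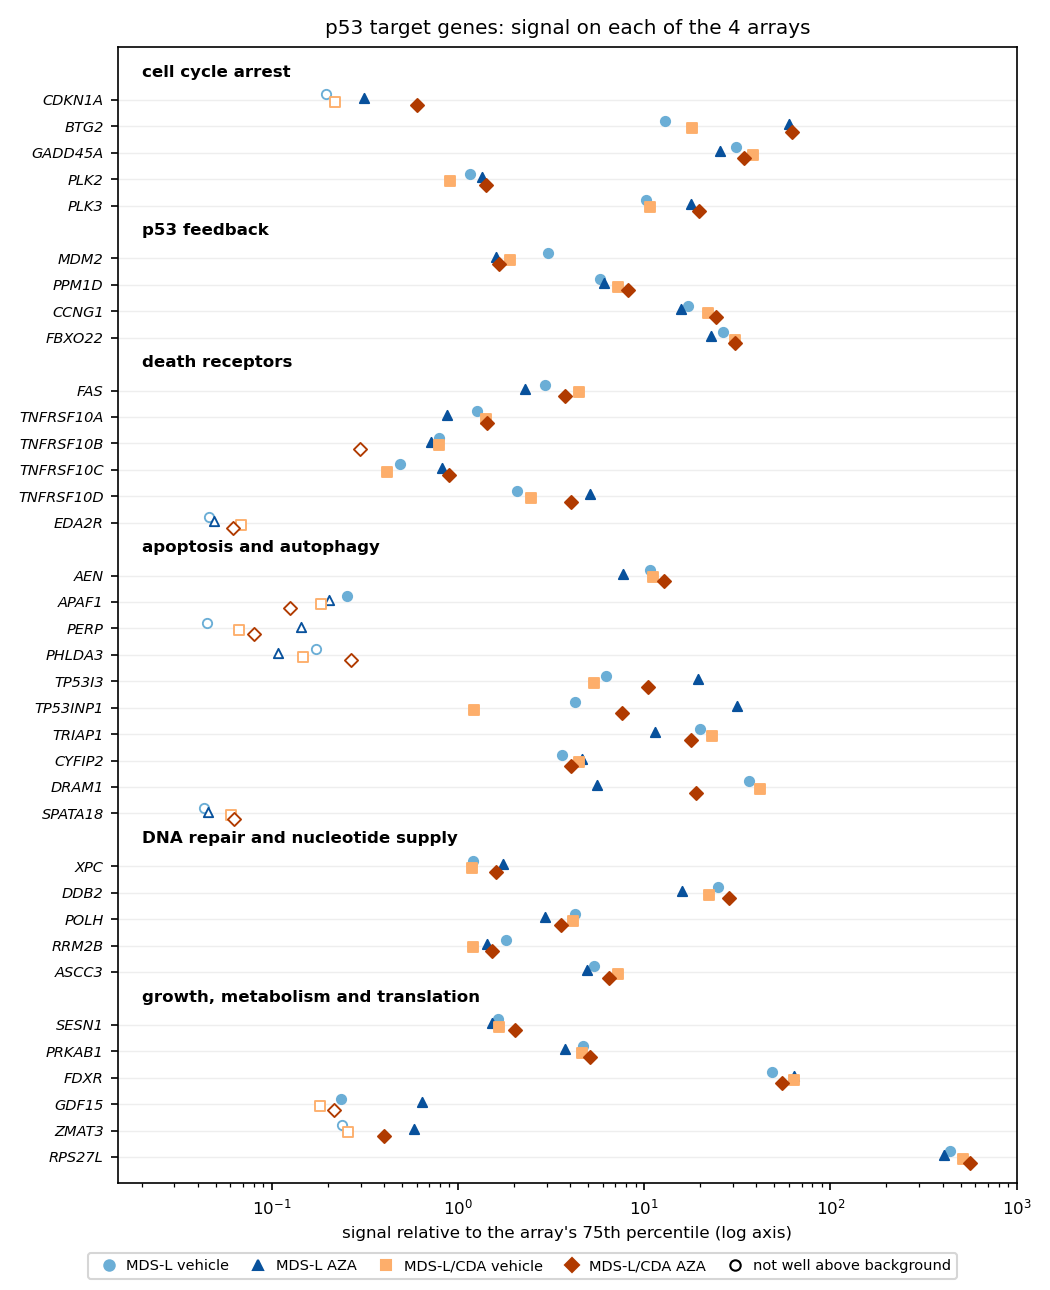
Signal of the 36 p53 target genes on each of the 4 arrays, relative to the 75th percentile of the array and on a log axis, in groups by role. Filled points were well above background and open points were not. TP53INP1 and BTG2 lie to the right on the AZA array of each line and DRAM1 to the left. SPATA18, EDA2R, PERP and PHLDA3 have open points only.

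Among genes of cell cycle arrest, BTG2 was the gene that stood out. It encodes an antiproliferative cofactor of mRNA deadenylation. The relative signal of BTG2 was 12.9 on MDS-L vehicle, 59.7 on MDS-L AZA, 18.0 on MDS-L/CDA vehicle and 62.4 on MDS-L/CDA AZA, for a probe at chr1:203278454-203278513 (hg19). Both AZA arrays were above both vehicle arrays, 4.63-fold in MDS-L and 3.46-fold in MDS-L/CDA.

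CDKN1A, which encodes the cyclin-dependent kinase inhibitor p21 and is the classical p53 target for arrest, was dim. Its relative signal was 0.195 on MDS-L vehicle and 0.220 on MDS-L/CDA vehicle, neither well above background, and 0.313 on MDS-L AZA and 0.600 on MDS-L/CDA AZA, both well above it. With this scaling CDKN1A was at least 1.60-fold higher with AZA in MDS-L and at least 2.20-fold higher in MDS-L/CDA. Over 8 normalizations, this one included, its ratio lay between 1.08 and 1.82 in MDS-L and between 1.22 and 2.76 in MDS-L/CDA, so the size depends on the processing. Neither passed the Z score (0.58 and 1.58). CDKN1A has 1 probe on this array.

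PLK3, a stress-activated kinase of the polo family, had relative signals of 10.2 on MDS-L vehicle, 17.8 on MDS-L AZA, 10.8 on MDS-L/CDA vehicle and 19.7 on MDS-L/CDA AZA. The AZA arrays were above the vehicle arrays by 1.73-fold and 1.82-fold, under the ratio of 2. PLK2, a kinase of the same family, had ratios of 1.15 and 1.57. GADD45A, a stress sensor that binds PCNA and CDK1, had ratios of 0.825 and 0.903, and its log2 ratio in MDS-L/CDA (-0.15) was within the error between spots.

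None of the 4 genes of p53 feedback was called in either line. Over all genes the rule called 4.27% increased and 2.67% decreased in MDS-L, and 2.10% and 2.89% in MDS-L/CDA. With these shares, none called among 4 genes lies near the background. MDM2 had a relative signal of 3.03 on MDS-L vehicle, 1.60 on MDS-L AZA, 1.89 on MDS-L/CDA vehicle and 1.67 on MDS-L/CDA AZA. The MDS-L vehicle array stood above the other three, and the log2 ratio was -0.92 in MDS-L and -0.18 in MDS-L/CDA. The other 2 probes of MDM2 gave -0.27 and 0.063 in MDS-L and 1.13 and 0.46 in MDS-L/CDA, so no direction can be given for MDM2. PPM1D, a phosphatase that switches the p53 response off, had log2 ratios of 0.070 and 0.17. CCNG1, a cyclin that acts with a phosphatase on MDM2, had -0.12 and 0.14. FBXO22, a ubiquitin ligase subunit, had -0.22 and 0.011.

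The death receptors differed among themselves. The transmembrane receptors that lead to caspase activation were not called increased in either line, and only 4.27% and 2.10% of all genes were. The decoy receptors, which bind TRAIL without signalling apoptosis, were higher with AZA without passing the rule in full. Of all genes, 16.1% in MDS-L and 10.6% in MDS-L/CDA were at least 1.5-fold higher. TNFRSF10D, a decoy receptor, had relative signals of 2.08 on MDS-L vehicle, 5.12 on MDS-L AZA, 2.48 on MDS-L/CDA vehicle and 4.06 on MDS-L/CDA AZA. This was 2.46-fold and 1.64-fold, with a Z score of 1.88 in MDS-L, just under the rule. TNFRSF10C, the other decoy receptor, had 0.490, 0.825, 0.417 and 0.892 on the same arrays in the same order, which was 1.68-fold and 2.14-fold with Z scores of 0.82 and 1.88. Over the 8 normalizations the ratio of TNFRSF10C lay between 1.16 and 1.91 in MDS-L and between 1.24 and 2.17 in MDS-L/CDA.

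TNFRSF10B, a TRAIL receptor that signals apoptosis, had relative signals of 0.792 on MDS-L vehicle, 0.716 on MDS-L AZA and 0.788 on MDS-L/CDA vehicle, and 0.299 on MDS-L/CDA AZA, which was not well above background. The last array stood apart from the other three, and with this scaling TNFRSF10B was at least 2.63-fold lower there than with vehicle. Over the 8 normalizations the ratio lay between 0.347 and 0.819, and the call was lost with normexp and with the authors' value table. With the mean of the probes the call was lost through the Z score alone, since TNFRSF10B has 1 probe. Where both arrays had to be well above background, TNFRSF10B was left out. TNFRSF10A, the other signalling TRAIL receptor, had log2 ratios of -0.52 in MDS-L and 0.014 in MDS-L/CDA. FAS, the receptor of FAS ligand, had -0.34 and -0.25, and its other measured probe -0.54 and -0.28. EDA2R, a receptor of the same superfamily, had relative signals of 0.0681 or less, not well above background.

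Of genes of apoptosis and autophagy, TP53INP1 had the highest ratio of all p53 target genes in both lines. It encodes a stress protein that acts in p53 phosphorylation and in autophagy. The relative signal of TP53INP1 was 4.23 on MDS-L vehicle, 31.4 on MDS-L AZA, 1.22 on MDS-L/CDA vehicle and 7.57 on MDS-L/CDA AZA (probe at chr8:95938694-95938753, hg19). AZA increased it 7.43-fold in MDS-L and 6.21-fold in MDS-L/CDA, which ranked 308 of 17172 and 39 of 15393 genes by log2 ratio. Its ratio in MDS-L/CDA lay between 3.15 and 6.28 over the 8 normalizations. A second probe of TP53INP1 was 6.03-fold higher with AZA in MDS-L and was not well above background on either MDS-L/CDA array.

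TP53I3, an oxidoreductase of the quinone reductase family, had relative signals of 6.26 on MDS-L vehicle, 19.3 on MDS-L AZA, 5.40 on MDS-L/CDA vehicle and 10.5 on MDS-L/CDA AZA. The AZA array was the brighter in each line, 3.09-fold in MDS-L and 1.95-fold in MDS-L/CDA. The MDS-L/CDA value lay just under the rule, with a Z score of 1.97. Its second probe gave 2.41-fold and 2.07-fold.

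DRAM1, a lysosomal membrane protein that takes part in autophagy, moved the other way. Its relative signal was 36.8 on MDS-L vehicle, 5.58 on MDS-L AZA, 41.9 on MDS-L/CDA vehicle and 19.0 on MDS-L/CDA AZA. Both AZA arrays were below both vehicle arrays, 6.59-fold in MDS-L and 2.20-fold in MDS-L/CDA. In MDS-L this was rank 36 from the bottom of 17172 genes. The difference between the lines of 1.58 on the log2 scale was larger than the error between spots of such a difference (SD 0.349), and without replicates it was not tested.

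The remaining genes of this group were not called. TRIAP1, an inhibitor of apoptosis, had log2 ratios of -0.81 and -0.37, AEN, a nuclease, -0.48 and 0.21, and CYFIP2, a subunit of the WAVE complex, 0.37 and -0.15. APAF1, the scaffold of the apoptosome, was well above background only on MDS-L vehicle. PERP, a membrane protein of cell junctions, PHLDA3, an inhibitor of AKT signalling, and SPATA18, a protein of mitochondrial quality control, were not well above background on any array. The values around the threshold were close: the relative signal of APAF1 was 0.253 on MDS-L vehicle, just inside, and the highest of PHLDA3 was 0.265 on MDS-L/CDA AZA, just outside, on an array where the lowest flagged value was 0.296.

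**Figure D2:**
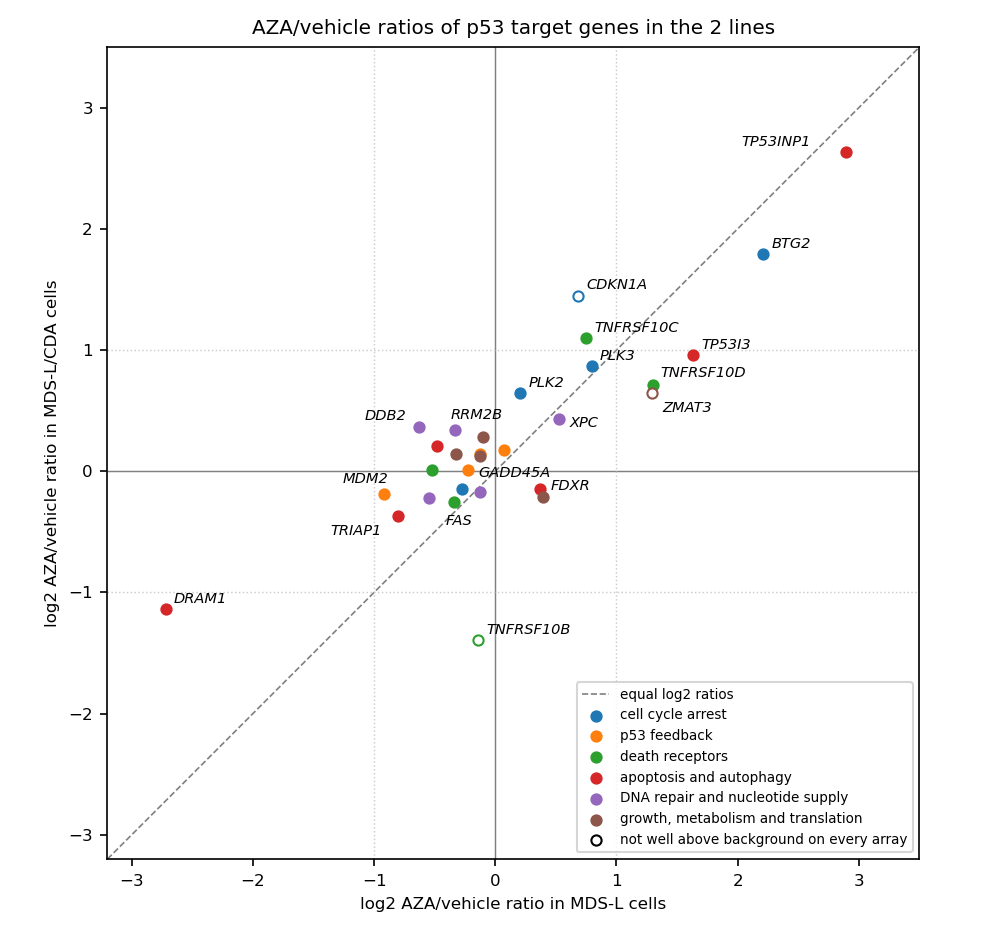
Log2 AZA/vehicle ratio of the 30 p53 target genes measured in both lines, MDS-L cells on the x axis and MDS-L/CDA cells on the y axis, coloured by role. Dotted lines mark a ratio of 2, the dashed line equal ratios, and open points genes not well above background on every array. TP53INP1 and BTG2 lie at the upper right, DRAM1 at the lower left, and TNFRSF10B below the rest.

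None of the 5 genes of DNA repair and nucleotide supply was called in either line. This too lies near the shares of all genes, 4.27% increased and 2.67% decreased in MDS-L, and 2.10% and 2.89% in MDS-L/CDA. DDB2, which recognizes ultraviolet lesions in DNA, had relative signals of 24.8 on MDS-L vehicle, 16.1 on MDS-L AZA, 22.2 on MDS-L/CDA vehicle and 28.6 on MDS-L/CDA AZA. The log2 ratio was -0.63 in MDS-L and 0.37 in MDS-L/CDA, but its second probe gave -0.31 in both. RRM2B, a subunit of ribonucleotide reductase that supplies nucleotides for repair, had -0.33 and 0.34, whereas its second probe gave 0.92 and 0.76. The probes thus pointed opposite ways for DDB2 in MDS-L/CDA and for RRM2B in MDS-L. XPC, the damage sensor of nucleotide excision repair, had 0.53 and 0.43. POLH, the translesion polymerase eta, had -0.54 and -0.22. ASCC3, a helicase, had -0.12 and -0.17.

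Among genes of growth, metabolism and translation, 2 dim genes were higher with AZA. GDF15, a secreted stress cytokine, had a relative signal of 0.237 on MDS-L vehicle and 0.638 on MDS-L AZA, and 0.181 and 0.216 on the MDS-L/CDA arrays, neither of them well above background. This was 2.70-fold in MDS-L with a Z score of 1.22, and between 1.28-fold and 3.06-fold over the 8 normalizations. ZMAT3, an RNA-binding protein that regulates splicing, had 0.584 on MDS-L AZA and 0.400 on MDS-L/CDA AZA, and was not well above background on either vehicle array. With this scaling it was at least 2.45-fold higher with AZA in MDS-L and at least 1.47-fold higher in MDS-L/CDA, with Z scores of 1.1 and 0.70. Over the 8 normalizations the ratio of ZMAT3 lay between 1.26 and 2.78 in MDS-L and between 1.09 and 1.58 in MDS-L/CDA. SESN1, a stress-induced inhibitor of the growth regulator mTORC1, had log2 ratios of -0.11 and 0.28. PRKAB1, a subunit of the kinase AMPK, had -0.33 and 0.14, and FDXR, a mitochondrial reductase, 0.39 and -0.21. RPS27L, a ribosomal protein, had relative signals between 405 and 562 and log2 ratios of -0.12 and 0.12.

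With the Z score left out, 6 of 32 genes reached a ratio of 2 in MDS-L, the 3 called and GDF15, TNFRSF10D and ZMAT3, against 9.78% of all measured genes. In MDS-L/CDA 4 of 30 did, the 2 called and CDKN1A and TNFRSF10C, against 3.88%. Of these genes, ZMAT3 and CDKN1A passed the filter only through AZA arrays, which favours an increase. At a ratio of 2 or more downwards the counts were 1 in MDS-L (7.12% of all genes) and 2 in MDS-L/CDA (4.19%). At a ratio of 1.5, 9 genes were above and 4 below in MDS-L, against 16.1% and 19.0% of all genes. In MDS-L/CDA 9 were above and 2 below, against 10.6% and 10.9%. CDKN1A and ZMAT3 were in both counts of 9. The 5 genes of cell cycle arrest had median log2 ratios of 0.68 in MDS-L and 0.87 in MDS-L/CDA, where those of all genes were -0.13 and 0.015. The value of 0.68 is that of CDKN1A, which was not well above background on vehicle, so this median leans on the filter. Over the 8 normalizations these medians lay between 0.11 and 0.86 and between 0.31 and 0.88, with 3 or 4 of the 5 above 0 in MDS-L and 4 in MDS-L/CDA. Genes of apoptosis and autophagy had medians of -0.32 over 7 genes and 0.033 over 6.

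The 2 AZA/vehicle comparisons share no array. Across the 30 genes measured in both, the log2 ratios had a Pearson r of 0.83 and a Spearman rho of 0.74, against 0.41 and 0.36 across 15212 genes. The points share the slide and the probe design, and genes are not independent replicates. The 15212 genes were not matched to the 30 for signal, so the higher values cannot be called particular to p53 target genes. The sign was the same for 19 of the 30 genes (63.3%) and for 61.7% of all genes, with 11 p53 target genes above 0 in both lines, 8 below 0 in both, 9 below 0 only in MDS-L and 2 below 0 only in MDS-L/CDA. The median difference, MDS-L minus MDS-L/CDA, was -0.24 on the log2 scale, and that of all genes was -0.14. Differences of 1 or more were seen for DRAM1, lower by 1.58 in MDS-L, and for TNFRSF10B, higher by 1.25 in MDS-L, which is 2 of 30 genes (6.67%) against 12.8% of all genes.

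The lines were also compared at matched treatment, on arrays that the AZA comparisons use too. TP53INP1 was 3.47-fold lower in MDS-L/CDA than in MDS-L on the vehicle arrays and 4.15-fold lower on the AZA arrays. Over 7 normalizations, this one included, the ratio on vehicle lay between 0.201 and 0.458. It was the only p53 target gene called on the vehicle arrays, where 2.80% of all measured genes were called lower and 1.29% higher. Its second probe was at least 1.48-fold lower on vehicle and at least 8.22-fold lower on AZA. On the AZA arrays DRAM1 was called too, 3.40-fold higher in MDS-L/CDA, where 2.32% of genes were called higher and 3.78% lower. At a ratio of 2 alone, 0 p53 target genes were higher and 1 lower in MDS-L/CDA on vehicle, against 2.37% and 4.53% of all genes, and 1 was higher and 3 were lower on AZA, against 5.83% and 9.29%.

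The median log2 ratio of MDS-L/CDA over MDS-L was 0.063 over 30 genes on vehicle and 0.28 over 31 genes on AZA, and that of all genes was 0.070 and 0.17. TP53I3 was close to even on the vehicle arrays (log2 ratio -0.21) and 1.84-fold lower in MDS-L/CDA on the AZA arrays. GDF15 was at least 2.16-fold lower and TNFRSF10B at least 2.39-fold lower in MDS-L/CDA on the AZA arrays, with Z scores of -1.41 and -1.14. Over the 7 normalizations the ratio on the AZA arrays lay between 0.239 and 0.829 for GDF15, which had passed the filter through MDS-L arrays only, and between 0.294 and 0.868 for TNFRSF10B. Others were higher in MDS-L/CDA on the AZA arrays without being called, CDKN1A 1.92-fold (1.27 to 2.09 over the 7 normalizations), DDB2 1.78-fold, AEN 1.67-fold, TNFRSF10A 1.63-fold, FAS 1.62-fold, TRIAP1 1.57-fold and CCNG1 1.54-fold. The lowest ratio over the 7 normalizations was 1.25 for DDB2, 1.18 for AEN, 1.14 for TNFRSF10A and FAS, 1.11 for TRIAP1 and 1.08 for CCNG1. The second probe of DDB2 gave 1.42-fold. At a ratio of 1.5, 8 of 31 genes were higher and 4 lower on the AZA arrays, against 20.3% and 15.9% of all genes. BTG2 was 1.40-fold higher on vehicle and 1.04-fold higher on AZA in MDS-L/CDA. For 17 of the 30 genes on vehicle and 22 of 31 on AZA the ratio was above 0 on the log2 scale, but with no scaling between arrays only 4 and 8 were.

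**Figure D3:**
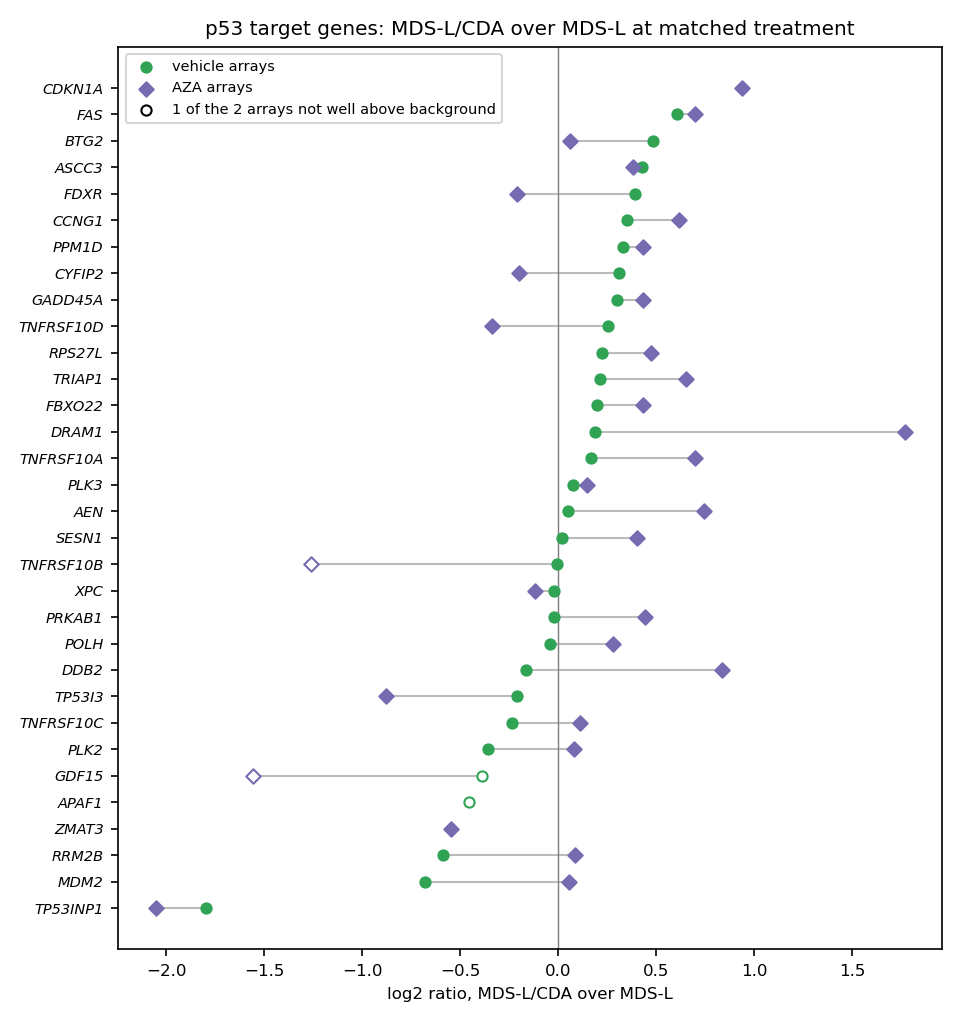
Log2 ratio of MDS-L/CDA over MDS-L for p53 target genes on the vehicle arrays (circles) and on the AZA arrays (diamonds), 1 gene per row, ordered by the vehicle ratio. Open points had 1 of the 2 arrays not well above background. TP53INP1 lies far to the left on both, whereas DRAM1 is near 0 on vehicle and at 1.77 on AZA.

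The probes of a gene were compared with each other where a gene had several. Of the 36 genes, 14 had several probes, and 10 of them had several measured probes in MDS-L and 9 in MDS-L/CDA. The probes pointed the same way for 7 of 10 and for 6 of 9. TP53I3, FAS, AEN and CCNG1 were among those that did in both lines. MDM2, RRM2B, DDB2, CYFIP2 and PPM1D did not in at least 1 line. The probes of PPM1D differed in sign in MDS-L only, with values close to 0 (0.070 and -0.011).

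**Figure D4:**
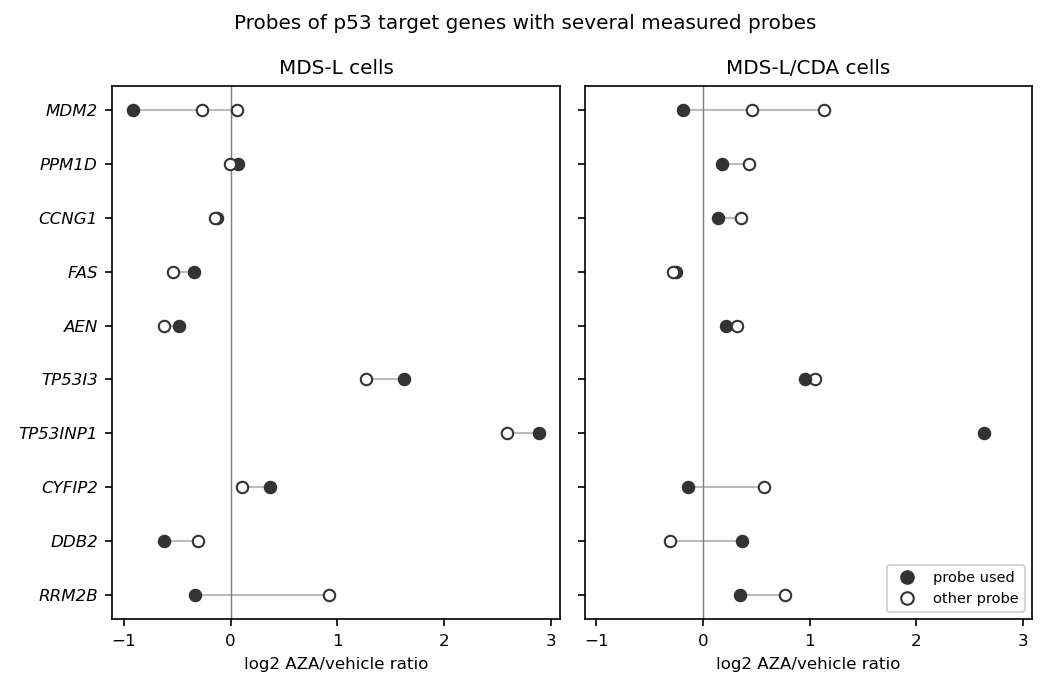
Log2 AZA/vehicle ratio of each measured probe of the p53 target genes with several measured probes, in MDS-L cells (left) and MDS-L/CDA cells (right). Filled points are the probes used and open points the other probes. The 2 probes of TP53I3 lie together at the right, and those of MDM2 spread over both sides of 0 in both lines.

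Of p53 and its regulators, 23 of 26 names were measured. Their median log2 ratio was -0.21 in MDS-L and -0.065 in MDS-L/CDA. MDM4, which holds p53 inactive, had log2 ratios of 0.030 and -0.25. Its other 2 probes gave -0.056 and 0.90 in MDS-L and 0.14 and 0.20 in MDS-L/CDA. No direction can thus be given for MDM4. None of the 23 was called increased (4.27% and 2.10% of all genes were). Called decreased were 1 of 23 in MDS-L and 2 of 23 in MDS-L/CDA, against 2.67% and 2.89% of all genes. CHEK1, the checkpoint kinase that acts when replication stalls, was called decreased in MDS-L, with relative signals of 24.9 on MDS-L vehicle, 10.3 on MDS-L AZA, 9.43 on MDS-L/CDA vehicle and 7.43 on MDS-L/CDA AZA. The MDS-L vehicle array stood above the other three, so the ratio was 2.43-fold down in MDS-L and 0.788 in MDS-L/CDA, and on vehicle CHEK1 was also called lower in MDS-L/CDA than in MDS-L (2.65-fold, Z score -3.99). TP53BP1, an adaptor at DNA breaks, and CREBBP, an acetyltransferase that p53 recruits, were called decreased in MDS-L/CDA. TP53BP1 fell 2.29-fold there, from 16.2 to 7.07, and CREBBP 3.0-fold, from 1.08 to 0.361, while their ratios in MDS-L were 0.883 and 0.694. The ratio of CREBBP in MDS-L/CDA lay between 0.305 and 0.662 over the 8 normalizations.

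Of 34 other names of p53 target genes, 25 were measured in MDS-L and 22 in MDS-L/CDA. Their median log2 ratio was -0.15 and -0.046. In this list 1 gene of 25 was called increased in MDS-L, against 4.27% of all genes, and this was DDIT4, an inhibitor of mTORC1. DDIT4 had relative signals of 8.21 on MDS-L vehicle and 36.1 on MDS-L AZA (4.40-fold), and stayed under the rule in MDS-L/CDA with 9.34 and 12.5 (1.34-fold). SFN, the cell cycle inhibitor 14-3-3 sigma, was at least 4.32-fold higher with AZA in MDS-L with a Z score of 1.85, and it was not well above background on either MDS-L/CDA array. TP53TG1, a noncoding RNA, was at least 1.65-fold higher in MDS-L and likewise not above background in MDS-L/CDA. Over the 8 normalizations the ratio in MDS-L lay between 1.53 and 5.13 for SFN and between 1.18 and 3.64 for TP53TG1. STEAP3, a metal reductase, CASP1, a caspase of inflammation, and TRIM22, an antiviral ubiquitin ligase, had ratios of 0.496, 0.416 and 0.354 in MDS-L without passing the Z score. In MDS-L/CDA the ratios of STEAP3, CASP1 and TRIM22 were 0.977, 0.756 and 0.459. The highest ratio over the 8 normalizations was 0.717 for CASP1 in MDS-L, and for TRIM22 it was 0.676 in MDS-L and 0.764 in MDS-L/CDA.

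The genes that p53 is known to repress through p21 and the DREAM complex, which are mitotic and replication genes such as CCNA2, E2F1 and FOXM1, were all measured (18 of 18). None was called in either line, where 4.27% and 2.10% of all genes were called increased and 2.67% and 2.89% decreased. All 18 were below 0 on the log2 scale in MDS-L, with a median of -0.48 and values between -0.88 and -0.028. In MDS-L/CDA 15 of 18 were above 0, with a median of 0.18. Of all genes, 41.1% were above 0 in MDS-L and 51.7% in MDS-L/CDA, with medians of -0.13 and 0.015. Under 7 other normalizations 0 to 4 of the 18 were above 0 in MDS-L and 11 to 16 in MDS-L/CDA. E2F1 had relative signals of 28.3 on MDS-L vehicle, 15.9 on MDS-L AZA, 32.7 on MDS-L/CDA vehicle and 34.3 on MDS-L/CDA AZA. With scaling to the 75th percentile, the MDS-L AZA array was the lowest of the 4 for all 18. On the AZA arrays all 18 were higher in MDS-L/CDA than in MDS-L, by a median of 0.65 on the log2 scale, where that of all genes was 0.17, and 4 of them (CCNA2, E2F1, FOXM1 and MCM5) were called higher, against 2.32% of all genes. The lowest ratio over the 7 normalizations was 1.61 for CCNA2, 1.52 for E2F1, 1.44 for FOXM1 and 1.44 for MCM5. These are under 2, so the 4 calls depend on the scaling. With no scaling 13 of 18 were higher, by a median of 0.14, and with normexp 17 of 18, by 0.30.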

How the data were processed

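Total RNA of 4 cultures was hybridized to 1-colour Agilent arrays on 1 slide. The authors deposited the scanner output of Feature Extraction 10.7.1.1 (hg19), in which the intensity of each spot is background-subtracted and not normalized between arrays, and a value table of intensity. Sorted, its columns lie within 0.0391 log2 units of each other, as after quantile normalization, a step not given in the sources used here. The 36 genes and the other lists were chosen with earlier results of these data known, and all 36 are named. Of the other lists MDM4 and genes past a ratio of 2 in an AZA/vehicle comparison are named. CCNA2, E2F1, FOXM1 and MCM5, and the markers KIT and CD38, were named after their values were seen, and some listed genes are not reported here.

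Control spots and 16 probes with outlier flags were left out, which left 58185. Log2 signals were averaged over spots and scaled by subtracting the array's 75th percentile. Percentiles were 52.5, 52.9, 40.8 and 37.3 in the order of the groups, between 32.6% and 36.5% of probes were well above background, and none was saturated. The number of arrays limits the precision. The Z score used the SD in 10 bins of signal, chosen here, and the thresholds are those of the paper's methods. For a bound, a dim signal was replaced by the higher of itself and the lowest signal well above background. Other normalizations, probe rules, filters and thresholds (14 in all) were tried. Python 3.11.15, numpy 2.4.6, pandas 2.3.3, matplotlib 3.10.9, R 4.3.3 and limma 3.58.1 (normexp) were used.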

Additional observations from a re-analysis of the deposited data

Results flagged for a closer look

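For 2 p53 target genes the AZA/vehicle log2 ratio had opposite signs in the 2 lines, each larger than the SD between spots of its pair. DDB2 had -0.63 in MDS-L and 0.37 in MDS-L/CDA. RRM2B had -0.33 in MDS-L and 0.34 in MDS-L/CDA. With 1 array per group the difference was not tested. The second probe of each gene gave the same sign in both lines, -0.31 and -0.31 for DDB2 and 0.92 and 0.76 for RRM2B.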

How the results depend on the processing

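BTG2 and TP53INP1 remained called increased, and DRAM1 decreased, in both lines under each of the 14 alternatives. Several of these alternatives could hardly remove the calls. BTG2 and DRAM1 have 1 probe each and were well above background on all 4 arrays, so other probe rules, filters and bounds left their ratios unchanged. Leaving out the Z score or lowering the ratio to 1.5 only loosens the rule. TP53I3 was not called in MDS-L with the median of each array. TNFRSF10D was also called in MDS-L with quantile normalization, with the authors' value table and with the 75th percentile of detected probes. In MDS-L the increased count was 6 at a ratio of 2 without Z score and 9 at a ratio of 1.5, and the decreased count was 4 with the median of each array (adding DDB2, MDM2 and TRIAP1) and 4 at a ratio of 1.5. In MDS-L/CDA the increased count was 4 with the mean of the probes of a gene (adding TNFRSF10C and TP53I3), 4 at a ratio of 2 and 9 at a ratio of 1.5. The decreased count there was 1, without TNFRSF10B, with normexp, the authors' value table, the mean of the probes or a signal well above background required on both arrays. TNFRSF10B and TNFRSF10C have 1 probe each, so with the mean of the probes only their Z scores changed.

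With the median of each array the median log2 ratio of p53 target genes in MDS-L was -0.66 and the median difference between the lines -0.73, since this scaling shifted all genes in MDS-L by -0.54. The median ratio of MDS-L/CDA over MDS-L on vehicle was -0.29 with quantile normalization within each line and -0.30 with no scaling. With the median of each array it was -0.46. On AZA it was -0.20 and -0.23 with the first 2 of these settings, neither of which scales the lines to each other. So the direction of the vehicle median depends on the scaling, and that of the AZA median turned in those 2 settings. Quantile normalization, the 75th percentile of detected probes and the authors' table shifted all genes in MDS-L by 0.11, 0.18 and 0.11, and no scaling shifted them by -0.13 in MDS-L/CDA. Increases made up 61.5% of all calls in MDS-L, 15.8% with the median of each array, 50.6% with normexp, 78.3% with detected probes and 43.6% with both arrays above background. In MDS-L/CDA they made up 42.1%, 28.6% with no scaling and 26.3% with normexp. Of the genes measured, 22 of 32 in MDS-L and 27 of 30 in MDS-L/CDA kept their direction under 7 other normalizations.

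No paired analysis was possible because each group has 1 array, and for the same reason no replicate was left out. Signals near background limit CDKN1A, GDF15, ZMAT3, APAF1 and TNFRSF10B, and the cause of the differences between settings was not tested.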
